A study of Mus musculus with 30 samples.

Results

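Genomic imprinting was followed in cultured mouse aortic smooth muscle cells through 40 genes: the imprint regulators Zfp57, Zfp445 and Trim28, and 37 genes that mouse tissues express from 1 parental copy, in some or all cell types. They were chosen by symbol from a fixed list, which was drawn up because Zfp57 was seen to be low in cells with knockdown of long CASC15. The values of the long knockdown comparisons therefore selected the set and are given here as a description; where the number of genes past a threshold is printed for them, it is a count and supports nothing. All 40 symbols were found among the 78334 gene identifiers of the deposited table, 1 identifier each. The counts sum both alleles, so they give the level of an imprinted gene and not which parental copy made it.

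Imprinted genes carry DNA methylation on 1 parental chromosome at control regions that escape the wave of demethylation after fertilisation. ZFP57 and ZFP445 are zinc finger proteins that bind methylated control regions, and TRIM28 is the corepressor they bring with it, which recruits histone H3 lysine 9 and DNA methyltransferases. Many imprinted genes act on growth, among them the growth factor gene Igf2, its clearance receptor Igf2r and the cell cycle inhibitor gene Cdkn1c, and several are strongly expressed in the fetus and lowered after birth.

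RNA came from 30 libraries in 9 groups and 2 sequencing runs. CASC15 is a long noncoding RNA, and knockdown used GapmeRs, antisense oligonucleotides that recruit RNase H to the bound RNA. Run 2 held untreated cells: 2 libraries of cells given a control GapmeR (antisense control), 2 of cells given GapmeRs to total CASC15, 3 of cells given a control plasmid and 3 of cells that overexpressed total CASC15 from a plasmid. Run 3 held 5 groups of 4 libraries. Among them were antisense control cells without treatment, the same cells with 10 ng/ml of angiotensin II, and the same cells with PDGF-BB, whose dose is given as a range of 10 to 30 ng/ml. The remaining groups were cells with knockdown of long CASC15, without treatment and with angiotensin II. Treatment lasted 24 h. Every group shared 48 h without serum and a transfection of at least 24 h, and no knockdown cells received PDGF-BB. The groups follow the library names, because elsewhere the labels number the target upward from 1 targeted library to the next, as CASC15, CASC16 and on to CASC22, and all were read as CASC15. Which transcripts are meant by total and by long CASC15 is not stated. Each library also carries a batch name from P16 to P19 that follows its replicate number, and nothing says whether batches are separate animals or cultures, so p-values measure the spread between these libraries. The P19 libraries stood apart over all genes: in run 3 the chi-square per degree of freedom of 2 libraries of a group was 23.8 to 40.1 in the 15 pairs with P19 and 4.37 to 11.5 in the 15 without it, and in run 2 it was 50.1 to 80.5 with P19 and 28.4 to 41.7 without.

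Libraries of run 2 held 18007199 to 21881959 counts, and those of run 3 held 15771490 to 30362047. The gene read as mouse CASC15, 2610307P16Rik, which no table used here pairs with that name, had 4.99 to 6.02 CPM, or counts per 1000000 counts of the library, in untreated antisense controls of run 3 and 2.22 to 3.63 in untreated long knockdown. It had 591 to 849 in overexpression libraries against 3.94 to 8.89 in plasmid controls. The libraries labelled total knockdown had 8.45 and 10, above the 6.63 and 7.86 of their controls, so directions drawn from that label are those of the libraries so labelled. Of the defining smooth muscle markers, Acta2 had a mean of 212 ± 12.9 CPM (SD, n = 4) in untreated antisense controls of run 3, and Myh11 was near 0, at 0.0639 ± 0.0479 CPM (SD, n = 4). In those 4 libraries the 10 smooth muscle markers summed to 907 to 1130 CPM and the 8 fibroblast and adventitial markers to 1650 to 1830, and the 8 pluripotent cell markers to at most 0.199. In bulk RNA, fewer cells of a type and less RNA per cell cannot be told apart.

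ZFP57 binds a 6-base motif, TGCCGC, when its CpG is methylated, and the promoters that hold those letters are shown so that these stretches can be read next to the counts. RefSeq promoter windows of the GRCm38.p6 build, 250 bases before to 50 after a start, were at hand for 33 members; Cdkn1c, Nespas, Rtl1, Sgce, Impact, Peg10 and H19 are named only. The motif or its reverse complement GCGGCA was found in 12 of the 33 members (36.4%), and in 13.1% of the 27025 symbols with a window. Per window the shares were 25.5% of 51 and 11.6% of 32851, and the median number of CpGs was 13 in the members' windows and 7 in all. The 7 members with the motif that could be tested in run 3 are printed below, 5′ to 3′ on the gene's strand, with the motif in capitals.
Trim28, chr7:13024082-13024109, + strand: ataggccaggcTGCCGCtgcagacgtcg
Meg3, chr12:109540795-109540822, + strand: ccaggggcactGCGGCAgattttttttt
Mest, chr6:30737972-30737999, + strand: ggaggggcgctGCGGCAggatgggcggg
Copg2, chr6:30896894-30896921, − strand: cacgcccccgtGCGGCAgtgggcggagc
Snrpn, chr7:60005185-60005212, − strand: acccctgcattGCGGCAaaaatgtgcgc
Nnat, chr2:157560094-157560121, + strand: ccaccggggctGCGGCAttgcgcccagc
Mcts2, chr2:152686898-152686917, + strand: gccTGCCGCagcttggcgca
Mest held a further match. Zdbf2, with 3 matches, Igf2, Zim1, Plagl1 and Grb10 also held the motif and had too few counts for a test in run 3. A match is a description of these letters, and the methylation of these sites was not measured.

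The whole Meg3 window with the motif is shown because Meg3 had the largest increase in long knockdown among the tested members with a mean of at least 1 CPM over run 3. Rasgrf1, below that mean, had a larger one. The most upstream of 3 Zfp57 windows is shown because Zfp57 had the largest decrease. The Zfp57 window had 6 CpGs and the Meg3 window 13. None of the 3 Zfp57 windows held the motif, and the other two had 9 and 4 CpGs.
Zfp57, chr17:37000913-37001212, + strand: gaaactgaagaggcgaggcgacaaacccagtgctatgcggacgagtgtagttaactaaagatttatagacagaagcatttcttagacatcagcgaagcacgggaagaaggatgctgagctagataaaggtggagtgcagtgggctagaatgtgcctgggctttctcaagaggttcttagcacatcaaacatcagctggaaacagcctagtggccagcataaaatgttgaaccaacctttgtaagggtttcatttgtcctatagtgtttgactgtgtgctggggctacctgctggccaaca
Meg3, chr12:109540746-109541045, + strand: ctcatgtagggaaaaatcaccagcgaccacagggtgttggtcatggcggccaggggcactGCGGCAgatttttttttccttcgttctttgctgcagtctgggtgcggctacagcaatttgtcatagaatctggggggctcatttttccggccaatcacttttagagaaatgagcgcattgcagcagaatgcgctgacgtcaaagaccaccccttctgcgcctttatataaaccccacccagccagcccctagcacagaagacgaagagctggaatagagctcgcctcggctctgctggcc

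Of the 40 members, 17 had at least 1 CPM in every library of run 3 and 16 in every library of run 2. Levels between genes are given as CPM, here scaled with TMM factors, per kilobase of exons. In untreated antisense controls of run 3, Gnas, which encodes the stimulatory G protein alpha subunit, had the highest mean level, 67.5 CPM per kilobase. Trim28 followed at 47.2, then Zfp57 at 42.8, Impact, a regulator of translation under amino acid stress, at 30.9 and Igf2r at 19.5 CPM per kilobase. Zfp445 (18.2), Copg2 (14.9), a coat protein gene beside Mest, and Blcap (6.21) came next. Zfp57 also lay between Trim28 and Impact in antisense controls under angiotensin II (42.4) and under PDGF-BB (32.1). In untreated long knockdown it was at 6.44 CPM per kilobase, below Impact (42.2), Igf2r (23.2), Zfp445 (19.4), Copg2 (14.7) and Blcap (10.2).

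H19, Igf2 and Peg3 were close to absent. H19, a maternally expressed noncoding RNA, had at most 7 counts in any library of run 3 and at most 6 in run 2. Igf2 had at most 11 and 12 counts, and Peg3 at most 6 and 5. Usp29, Zim1 and Magel2 had 0 counts in all 30 libraries, and 3 counts, the limit that a count of 0 allows, was 0.137 CPM in the first antisense control library of run 2. Counting error alone is covered by such limits. With Mirg, Rtl1, Dio3, Asb4, Plagl1, Grb10, Phlda2, Nespas and Zdbf2, these were the 15 members that had too few counts for a test in run 3. In run 2, 17 members had too few: the same genes except Plagl1, with Mest, Ppp1r9a and Nnat.

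**Figure D1:**
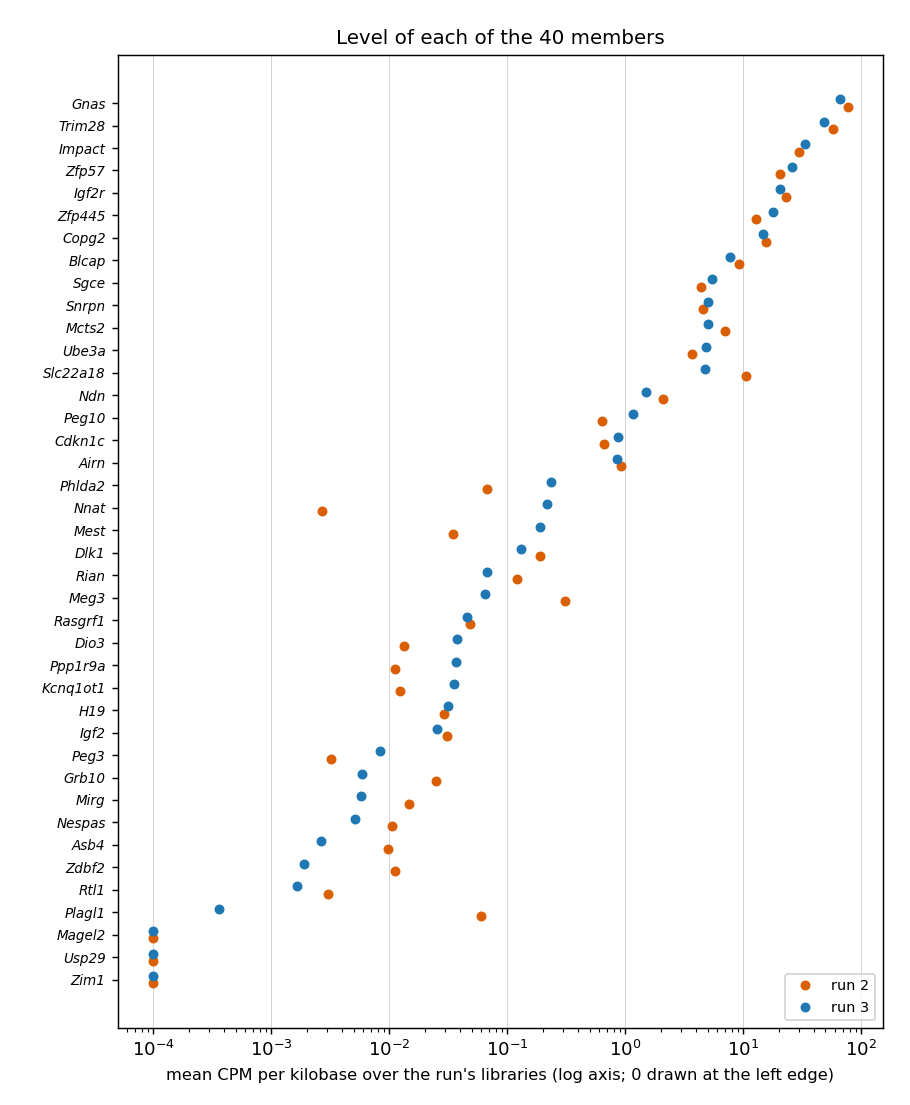
Mean level of each of the 40 members in CPM per kilobase of exons (log axis) over the 10 libraries of run 2 (orange) and the 20 of run 3 (blue), with genes at 0 drawn at the left edge. Gnas, Trim28, Impact and Zfp57 are at 65.8 to 26.0 CPM per kilobase in run 3, where the mean of Zfp57 pools its lower level in the 8 long knockdown libraries with that in the other 12, and Magel2, Usp29 and Zim1 are at 0 in both runs.

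The runs were fitted apart, and they differed in some members even between untreated antisense controls, which is given as values because run and group were not compared by a test. Meg3, a maternally expressed noncoding RNA of the Dlk1 locus, had 7.53 and 16.2 CPM in the antisense controls of run 2 and 0.588, 0.541, 0.299 and 0.305 CPM in those of run 3. Zfp57 had 70.5 and 131 CPM in the former and 182, 175, 185 and 107 CPM in the latter. Slc22a18, a transporter gene of the Cdkn1c domain, had a mean of 20.2 ± 2.23 CPM (SD, n = 2) against 7.99 ± 1.31 CPM (SD, n = 4). For Meg3 and Slc22a18 each library of run 2 was above each of run 3, and for Zfp57 the groups overlapped.

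Zfp57 was far lower in long knockdown, whereas the values of Zfp445 and Trim28 overlapped with those of the controls; these contrasts chose the set. In untreated cells Zfp57 had 182, 175, 185 and 107 CPM in antisense controls and 21.3, 28.1, 31.1 and 17 CPM in long knockdown (P16 to P19). Under angiotensin II it had 172, 185, 181 and 104 CPM in controls and 23.9, 24.5, 30.1 and 18 CPM in long knockdown. No knockdown library reached the lowest control library. The log2 fold change was -2.73 (SE 0.25) in both, 15.1% and 15% of the control level, and within a batch it was between -3.09 and -2.53 in all 8 pairs. The batch P19 had the lowest value in all 5 groups of run 3.

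Zfp445, the zinc finger gene that acts beside Zfp57 on imprints, had 137, 137, 144 and 120 CPM in untreated antisense controls and 148, 143, 162 and 121 CPM in untreated long knockdown. Under angiotensin II the values were 132, 139, 144 and 112 CPM in controls and 141, 155, 147 and 122 CPM in long knockdown. The groups overlapped in both, with log2 fold changes of 0.09 (SE 0.0929) and 0.10 (SE 0.0931). As for Zfp57, P19 was the lowest library of each of the 5 groups.

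Trim28 had 208, 203, 188 and 187 CPM in untreated antisense controls and 192, 205, 193 and 185 CPM in untreated long knockdown. Under angiotensin II it had 193, 201, 189 and 200 CPM in controls and 199, 224, 200 and 177 CPM in long knockdown. These groups overlapped too, and the log2 fold changes were -0.02 (SE 0.0664) and 0.03 (SE 0.0665).

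**Figure D2:**
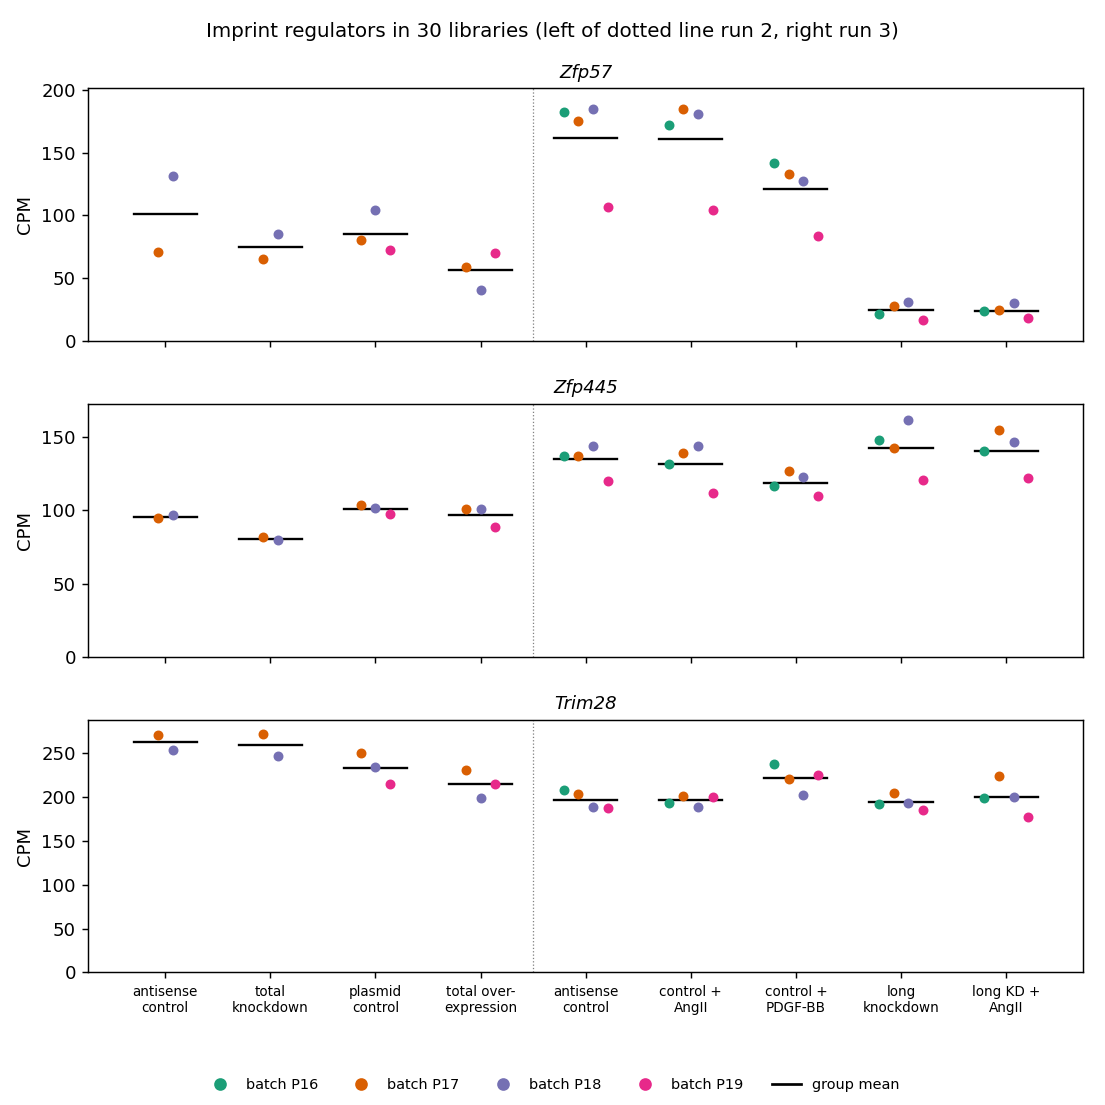
Level in CPM of Zfp57, Zfp445 and Trim28 in each of the 30 libraries, coloured by batch, with the group mean as a black line; run 2 is left of the dotted line and run 3 right of it. Zfp57 is at 17 to 31.1 CPM in the 8 long knockdown libraries and at 83.7 CPM or more in the other 12 libraries of run 3, and Zfp445 and Trim28 show no such step.

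In long knockdown members lay both above and below their controls, which is given as a description. Of the 25 members tested in run 3, 10 (40%) passed an adjusted p under 0.05 in untreated cells, 7 higher and 3 lower, where 25% of all 15103 genes passed; under angiotensin II 10 passed, 8 higher and 2 lower, where 26.7% of all genes passed. With the batch as a replicate block 13 members passed in each, beside 40.6% and 41.3% of all genes; the members added were Dlk1, Sgce and Rasgrf1 in untreated cells and Cdkn1c, Airn and Rasgrf1 under angiotensin II. The median log2 fold change of the 25 was 0.2 and 0.33, and that of all genes 0.02 and 0.01. These counts describe contrasts that chose the set, and passing the filter is itself easier for a gene that is high in 1 group. The 2 comparisons share no library but share the batches.

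The noncoding RNAs of the Dlk1 domain, Meg3 and Rian, lay highest among the members with a mean of at least 1 CPM over run 3. Those means, 1.17 and 1.23 CPM, include the long knockdown libraries. In antisense controls the means were 0.433 and 0.608 CPM without treatment and 0.617 and 0.717 CPM under angiotensin II. Their place in this ranking therefore rests on libraries where they were higher. In untreated cells Meg3 was at 2.15, 2.89, 3.15 and 0.796 CPM in long knockdown, above its controls, and under angiotensin II at 2.05, 0.917, 2.25 and 1.49 CPM against 0.696, 0.539, 1.11 and 0.123 CPM, where the groups overlapped. Its log2 fold changes were 2.37 (SE 0.507) and 1.43 (SE 0.503), from at most 58 counts per library. The latter ran from 1.11 to 1.87 when single libraries were left out. Rian, which hosts small nucleolar RNAs, had 0.966, 0.325, 0.598 and 0.542 CPM in untreated controls and 2.01, 1.95, 1.41 and 1.54 CPM in untreated long knockdown. Under angiotensin II Rian had 0.886, 0.784, 0.642 and 0.555 CPM in controls and 2.41, 1.3, 1.4 and 1.54 CPM in long knockdown, and the groups did not overlap in either; its log2 fold changes were 1.48 (SE 0.312) and 1.21 (SE 0.316). Dlk1, the paternally expressed Notch ligand gene of that domain, differed the other way by a log2 fold change of -1.25 (SE 0.488) and -0.87 (SE 0.491), from 1 to 20 counts per library in these 4 groups.

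Peg10, a paternally expressed gene derived from a retrotransposon, had 4.7, 5.47, 6.08 and 6.37 CPM in untreated controls and 12, 11, 14 and 10.8 CPM in untreated long knockdown. Under angiotensin II Peg10 had 5.44, 4.56, 6.95 and 4.19 CPM in controls and 10.8, 11.4, 11.8 and 10.1 CPM in long knockdown. In both settings all 4 knockdown libraries lay above all 4 controls, and the fold was 2.11 and 2.09. Sgce, its neighbour with a shared control region, had log2 fold changes of 0.28 (SE 0.114) and 0.33 (SE 0.114).

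Blcap, which shares its locus with Nnat, had 21.3, 16.7, 20.8 and 16.8 CPM in untreated controls and 30.2, 33.3, 31 and 30.1 CPM in untreated long knockdown, a fold of 1.65. The fold was again 1.65 under angiotensin II, at 16.5, 19.7, 19.2 and 20.5 CPM in controls and 31.7, 30.7, 29.7 and 32.8 CPM in long knockdown. Neither setting showed an overlap. Impact had 161, 156, 159 and 159 CPM in untreated controls and 221, 213, 231 and 201 CPM in untreated long knockdown. Under angiotensin II it had 160, 153, 163 and 157 CPM in controls and 214, 205, 228 and 205 CPM in long knockdown, so Impact too was higher in all 8 knockdown libraries, by a fold of 1.37 and 1.35. The maternally expressed Igf2r had log2 fold changes of 0.25 (SE 0.0662) and 0.33 (SE 0.0663), and Ube3a, a ubiquitin ligase gene imprinted in neurons, 0.41 (SE 0.0954) and 0.40 (SE 0.0958). Airn, the noncoding RNA antisense to Igf2r, had 0.44 (SE 0.336) and 0.88 (SE 0.344); the latter ran from 0.58 without replicate 4 of long knockdown under angiotensin II to 1.28 without replicate 4 of its control.

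Cdkn1c, which encodes the cyclin-dependent kinase inhibitor p57, had 2.18, 3.84, 2.39 and 2.44 CPM in untreated controls and 1.73, 1.61, 1.58 and 1.01 CPM in untreated long knockdown. Under angiotensin II it had 2.85, 1.91, 3.1 and 2.03 CPM in controls and 1.85, 1.83, 1.25 and 1.05 CPM in long knockdown. Every knockdown library was lower than every control, and the log2 fold changes were -0.86 (SE 0.278) and -0.72 (SE 0.281).

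Gnas had 775, 742, 718 and 785 CPM in untreated controls and 604, 593, 549 and 681 CPM in untreated long knockdown. Under angiotensin II the values were 764, 738, 703 and 858 CPM in controls and 614, 585, 571 and 635 CPM in long knockdown, again without overlap. The log2 fold changes were -0.31 (SE 0.0742) and -0.35 (SE 0.0743). Among the members with a mean of at least 1 CPM, the fourth largest decrease was that of Snrpn, a splicing protein gene of the Prader-Willi region, in untreated cells (-0.19, SE 0.152) and of Mcts2, a retrocopy of a translation factor gene, under angiotensin II (-0.12, SE 0.186), both with overlapping groups. Rasgrf1 had a mean under 1 CPM in run 3 and log2 fold changes of 2.48 (SE 1.01) and 2.24 (SE 0.954). Other members in long knockdown, Ppp1r9a, Mest, Copg2, Slc22a18, Kcnq1ot1, Ndn and Nnat, lay between -0.63 and 0.45.

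**Figure D3:**
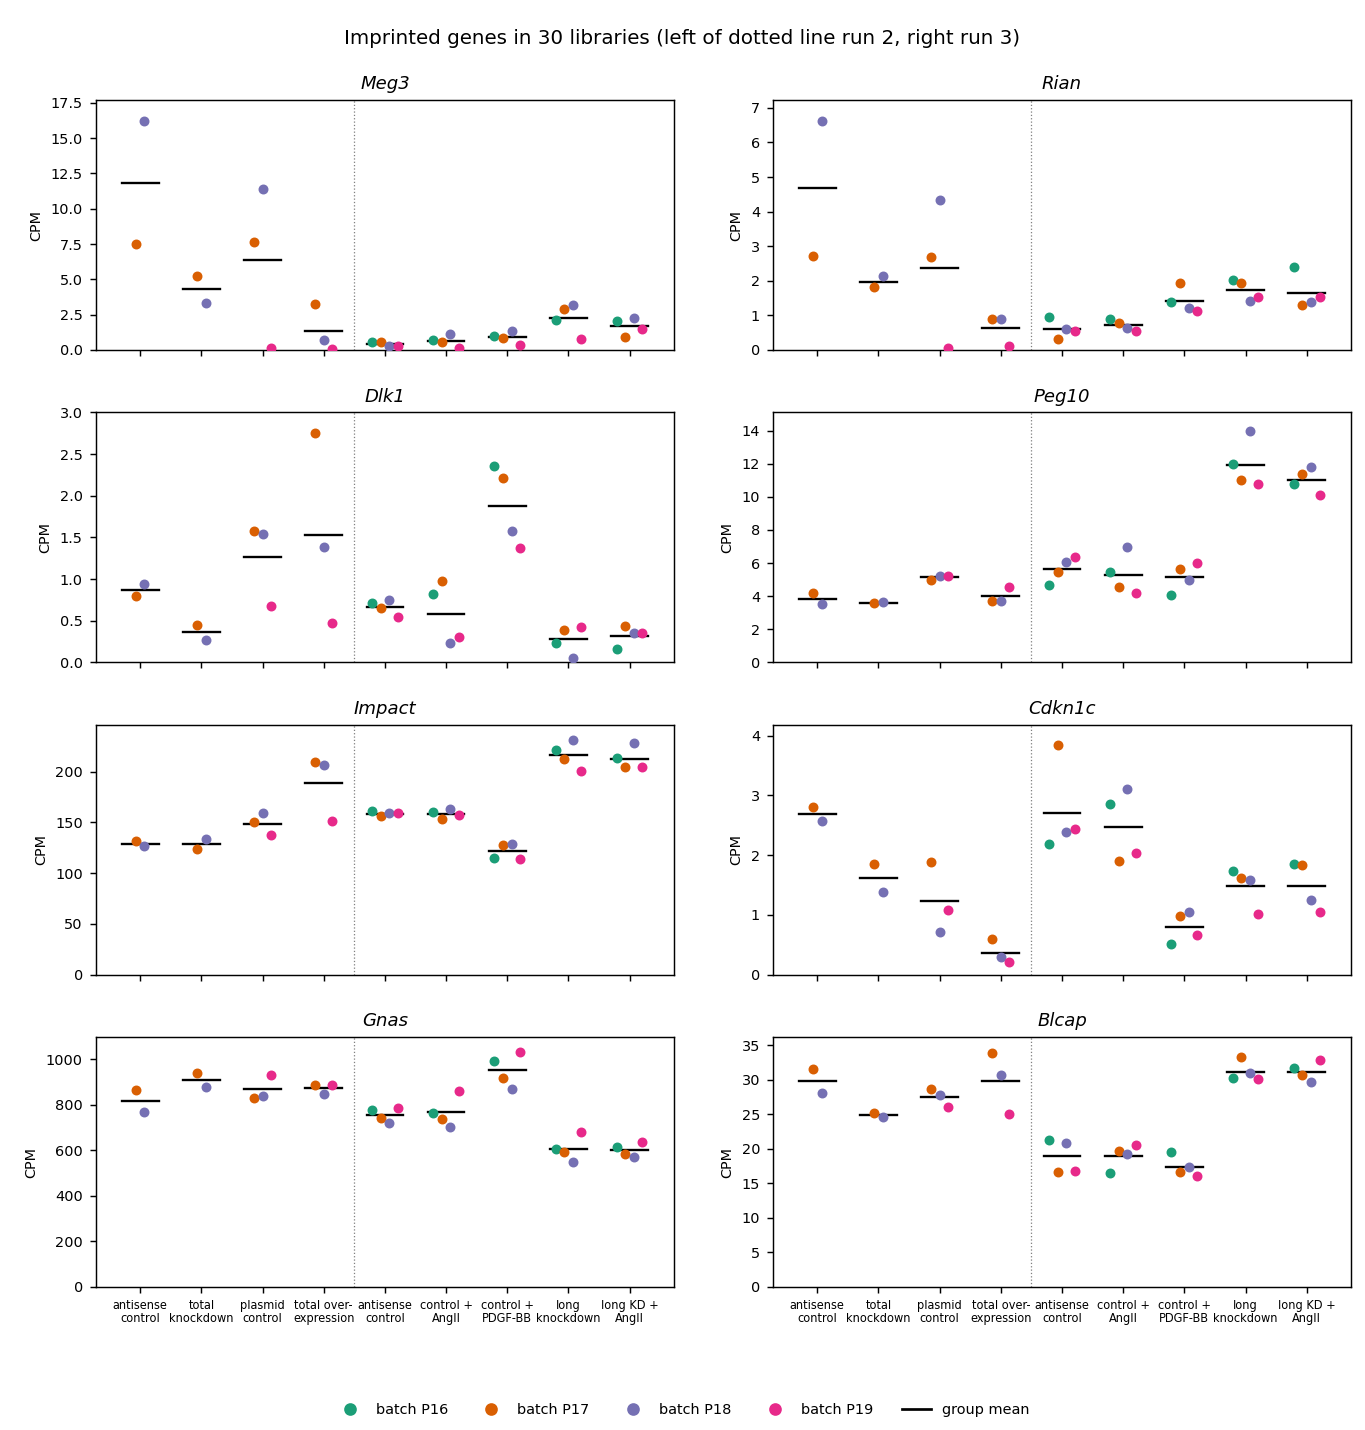
Level in CPM of Meg3, Rian, Dlk1, Peg10, Impact, Cdkn1c, Gnas and Blcap in each of the 30 libraries, coloured by batch, with the group mean as a black line; run 2 is left of the dotted line and run 3 right of it. Peg10 and Blcap are higher in the 8 long knockdown libraries than in the other libraries of run 3, and Meg3 and Rian are near 0 in both P19 libraries of run 2.

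Of the 5 genes on each side of Zfp57 in the annotation, Znrd1, Znrd1as, H2-M5 and Gabbr1 were tested. Their log2 fold changes in untreated long knockdown, also a description, were 0.27 (SE 0.156), 0.30 (SE 0.124), 0.69 (SE 0.395) and 0.16 (SE 0.234), and lay between -0.10 and 1.08 under angiotensin II. The other 6, among them Mog and the olfactory receptor genes Olfr90 to Olfr92, had too few counts for a test. In the same contrast the epithelial markers Krt8 and Cdh1 were lower, at 0.294 ± 0.236 against 2.93 ± 1.69 CPM and 46.2 ± 15.5 against 113 ± 12.4 CPM (SD, n = 4 each). The 6 epithelial markers summed to 36.9 to 70.2 CPM in untreated long knockdown and 97.8 to 129 CPM in its controls, and the 10 proliferation genes to 93.4 to 253 and 169 to 339 CPM. Under angiotensin II the epithelial sums were 35.5 to 64.6 in long knockdown and 104 to 128 CPM in controls, and the proliferation sums 93.3 to 241 and 192 to 385 CPM. All 10 proliferation genes had a negative log2 fold change in both (medians -0.92 and -1.31). Of them 1 and 2 passed as lower, where 25% and 26.7% of all genes passed in either direction. With the block 7 and 8 passed as lower, beside 40.6% and 41.3% of all genes. The 8 fibroblast and adventitial markers summed to 1800 to 2220 CPM in untreated long knockdown and 1650 to 1830 CPM in its controls, and to 1780 to 2270 and 1730 to 1950 CPM under angiotensin II. Of 6 tested, Pdgfra and Lum were higher in untreated long knockdown (log2 fold changes 1.66 and 2.06), and Pi16 and Ly6a lower (-1.83 and -1.95). The smooth muscle markers summed to 817 to 987 CPM in untreated long knockdown against 907 to 1130 CPM, and to 840 to 1000 against 905 to 1100 CPM under angiotensin II. Of 9 tested, 3 and 4 passed without the block (33.3% and 44.4%, beside 25% and 26.7% of all genes), 2 higher in each. The endothelial markers summed to 1.96 to 3.88 CPM against 1.25 to 2.76 CPM, and to 2.29 to 4.21 against 0.925 to 2.28 CPM under angiotensin II. Of 2 tested, 1 passed without the block, higher, in each, beside the same shares of all genes. The part of these markers in the values of the imprinted genes was not tested.

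PDGF-BB, a growth factor that drives smooth muscle cells to divide, is a contrast on which the set was not chosen, and it shares its untreated controls with the untreated long knockdown comparison. Dlk1 rose 2.83-fold and Rian 2.3-fold, and Cdkn1c fell to 29.8% of the control level, each from at most 72 counts per library. Of the 25 members tested, 12 (48%) passed edgeR's quasi-likelihood test at an adjusted p under 0.05, 5 higher and 7 lower, beside 43.6% of all genes, a share near that of the members. The median log2 fold change of the 25 was -0.13 and that of all genes -0.02. With the batch as a replicate block 16 members passed, 6 higher and 10 lower, beside 54.5% of all genes.

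Cdkn1c had 2.18, 3.84, 2.39 and 2.44 CPM without treatment and 0.505, 0.976, 1.05 and 0.662 CPM under PDGF-BB. The groups did not overlap, and all 4 batches showed the decrease (log2 fold change -1.75, SE 0.294, adjusted p = 7.47e-05, edgeR). Dlk1 had 0.714, 0.65, 0.748 and 0.542 CPM without treatment and 2.36, 2.21, 1.58 and 1.37 CPM under PDGF-BB. It was higher in every treated library (log2 fold change 1.5, SE 0.419, adjusted p = 0.00653, edgeR), from 12 to 17 counts in untreated libraries and 27 to 43 in treated ones. With a mean of 0.745 CPM over run 3, Dlk1 was not tested with the filter at a mean of 1 CPM. Rian had 0.966, 0.325, 0.598 and 0.542 CPM without treatment and 1.4, 1.95, 1.21 and 1.12 CPM under PDGF-BB. These groups did not overlap either (log2 fold change 1.20, SE 0.315, adjusted p = 0.0041, edgeR), from 6 to 23 counts in untreated libraries and 22 to 38 in treated ones.

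Gnas had 992, 916, 867 and 1030 CPM under PDGF-BB against 775, 742, 718 and 785 CPM without it and rose (log2 fold change 0.34, SE 0.0742, adjusted p = 0.00106, edgeR). Impact had 115, 128, 129 and 114 CPM against 161, 156, 159 and 159 CPM and fell (log2 fold change -0.38, SE 0.0570, adjusted p = 1.97e-05, edgeR). For both genes the treated and untreated libraries were fully apart. Among the other paternally expressed genes, Ndn, a growth suppressor gene of the Prader-Willi region, fell by 0.64 on the log2 scale, Snrpn by 0.43 and Sgce by 0.39, and Mcts2 rose by 0.50. Among the other maternally expressed genes Slc22a18 fell by 0.63 and Igf2r by 0.30. The edgeR adjusted p of these 6 lay between 0.00116 and 0.0297. Leaving out 1 library ended the call of Snrpn (adjusted p up to 0.0842 in edgeR, without replicate 3 of the untreated controls), of Mcts2 (up to 0.128, without replicate 2 of the untreated controls) and of Sgce (0.061, without replicate 4 of the untreated controls).

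Among the regulators, Trim28 was at 238, 220, 202 and 225 CPM under PDGF-BB against 208, 203, 188 and 187 CPM without it. The groups overlapped, and the rise was small (log2 fold change 0.17, SE 0.0664, adjusted p = 0.0422, edgeR); 11 of 15 alternative fits ended that call, with an adjusted p up to 0.19 without replicate 1 of the treated cells. Zfp57 had 142, 133, 127 and 83.7 CPM under PDGF-BB against 182, 175, 185 and 107 CPM, lower in all 4 batches. Its log2 fold change of -0.41 (SE 0.23) did not pass edgeR's test (adjusted p = 0.158) and passed with the replicate block (adjusted p = 7.8e-05) and with P19 left out (adjusted p = 0.000811). Zfp445 had 117, 127, 123 and 110 CPM under PDGF-BB against 137, 137, 144 and 120 CPM. It too was lower in 4 of 4 batches (log2 fold change -0.18, SE 0.0931, edgeR adjusted p = 0.133, and 0.00244 with the replicate block).

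The block also brought in Ppp1r9a, lower (log2 fold change -1.57, edgeR adjusted p = 0.0592, and 0.0248 with the block), and Ube3a, higher (0.22, edgeR adjusted p = 0.0727, and 0.0204 with the block). Meg3 had 1.01, 0.873, 1.32 and 0.356 CPM under PDGF-BB, with groups that overlapped (log2 fold change 1.03, SE 0.529, edgeR adjusted p = 0.121). Peg10 and Blcap, higher in long knockdown, had log2 fold changes of -0.13 (SE 0.159) and -0.12 (SE 0.0927) under PDGF-BB, and neither passed. Set beside the untreated long knockdown, Gnas, Impact and Dlk1 had the opposite sign under PDGF-BB, and Cdkn1c and Rian the same sign; the shared controls enter both values and no test of the difference was made.

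**Figure D4:**
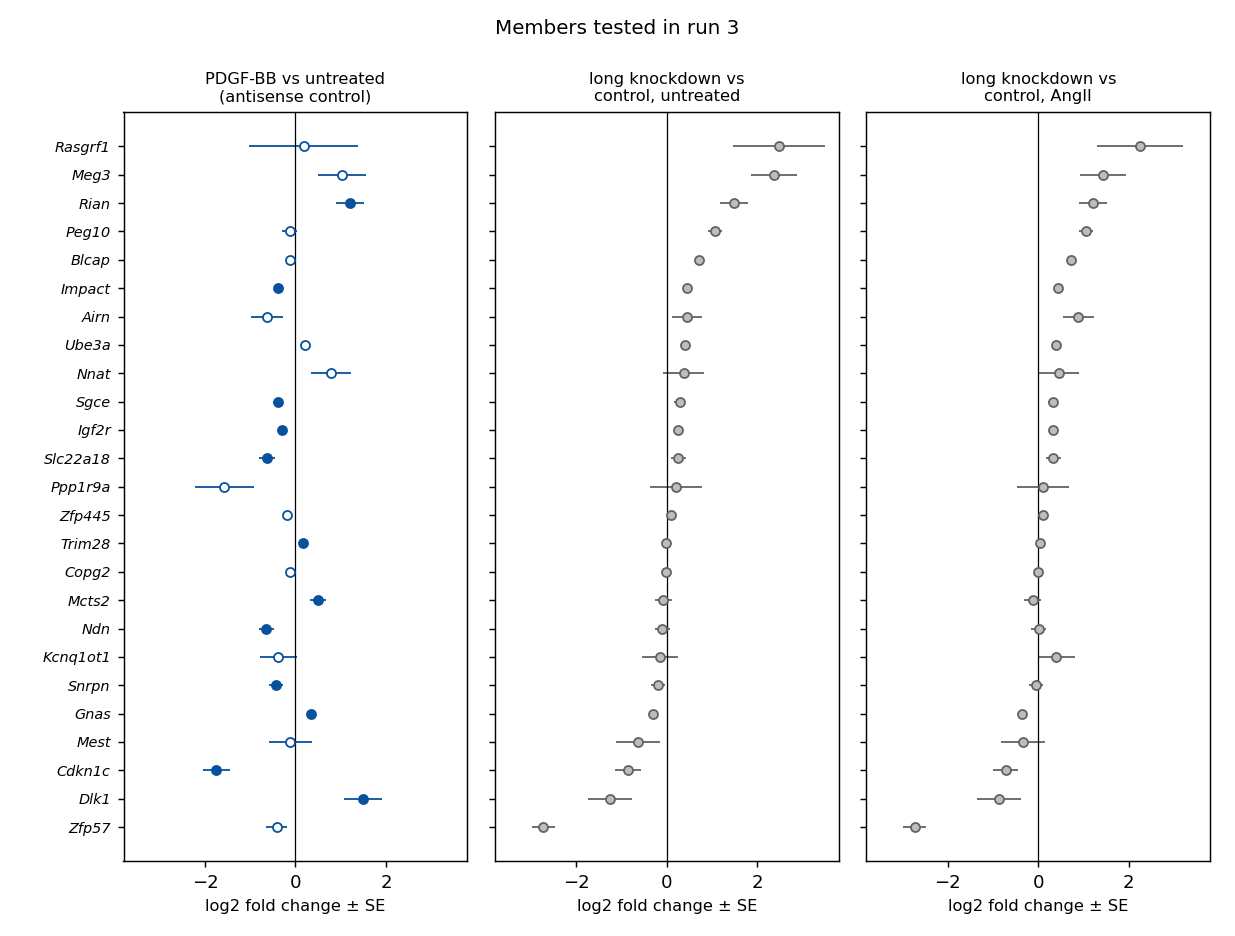
Log2 fold change ± SE of the 25 members tested in run 3, with PDGF-BB against no treatment on the left (filled: adjusted p under 0.05) and long knockdown against antisense control, untreated and under angiotensin II, in the middle and on the right (grey: description, no test). Zfp57 lies at -2.73 in both knockdown panels and at -0.41 under PDGF-BB, and Cdkn1c is below 0 in all 3.

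All 10 proliferation genes rose under PDGF-BB, and summed to 2120 to 2250 CPM against 169 to 339 CPM without it. The 8 fibroblast and adventitial markers summed to 847 to 1090 CPM against 1650 to 1830 CPM, and the 10 smooth muscle markers to 703 to 820 CPM against 907 to 1130 CPM. Of 6 fibroblast and adventitial markers tested 1 passed as higher and 3 as lower, and of 9 smooth muscle markers 1 and 2, beside 43.6% of all genes. The endothelial markers summed to 0.356 to 1.05 CPM against 1.25 to 2.76 CPM, without overlap, and 1 of 2 tested passed, lower. Of the epithelial markers Cdh1 rose (log2 fold change 0.63, edgeR adjusted p = 0.00992), and no pluripotent cell marker was tested. Their part in the changes of the imprinted genes was not tested.

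Genes that act on DNA methylation and repressive chromatin moved in both directions under PDGF-BB. Of 30 tested in a list of 34, 17 (56.7%) passed edgeR's test, 14 higher and 3 lower, beside 43.6% of all genes, and 19 of the 30 had a positive and 11 a negative log2 fold change. Uhrf1, which brings the maintenance methyltransferase to newly copied DNA, rose by a log2 fold change of 3.57 (SE 0.439), the chromatin remodeller gene Hells by 2.85 (SE 0.324), and the histone methyltransferase gene Suv39h2 by 2.68 (SE 0.261). In long knockdown, again a description, 9 of the 30 passed in untreated cells (30%, beside 25% of all genes), 3 higher and 6 lower, and 16 under angiotensin II (53.3%, beside 26.7% of all genes), 7 higher and 9 lower. With the block the count was 16 in untreated cells, beside 40.6% of all genes, and 18 under angiotensin II, beside 41.3%. The de novo methyltransferase gene Dnmt3a had a log2 fold change of 0.67 in both, from 33.8 ± 0.418 to 53.8 ± 3.39 CPM (SD, n = 4 each) in untreated cells, Ehmt1 -0.46 and Tet1 0.45 in untreated cells, and Suv39h2 -1.12 and Hells -0.97 under angiotensin II.

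A second list held 56 further imprinted genes, of which 54 were found and 33 tested in run 3. Under PDGF-BB 15 passed (45.5%, near the 43.6% of all genes), 9 higher and 6 lower, with log2 fold changes of -2.73 (SE 0.391) for Smoc1, -1.26 (SE 0.107) for Dcn, the decorin gene, and 1.14 (SE 0.125) for Atp10a. Dcn is also among the fibroblast and adventitial markers, so those lists share a gene. In long knockdown, as a description, 13 passed in each comparison (39.4%, beside 25% of all genes in untreated cells and 26.7% under angiotensin II), 7 higher and 6 lower. With the block 21 passed in untreated cells, beside 40.6% of all genes, and 20 under angiotensin II, beside 41.3%. Smoc1 had -1.22 and -1.01, Tspan32 -1.13 and -1.03, Cobl -0.90 in untreated cells, and Trappc9 0.95 under angiotensin II.

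For angiotensin II, a hormone that contracts vessels, no tested member passed. In antisense control cells, in long knockdown cells and for the interaction of knockdown and angiotensin II, 0 of 25 members passed edgeR's or DESeq2's test, and 0 had an unadjusted p under 0.05. Of all genes 0% passed edgeR's test in each of these comparisons, both without and with the replicate block (0% again), and 156, 174 and 166 genes had an unadjusted edgeR p under 0.05 without it. DESeq2's test passed 0.00662% of all genes in antisense control cells, 0% in long knockdown cells and 0.00662% for the interaction. Kcnq1ot1, the noncoding RNA that silences the Cdkn1c domain, had the smallest unadjusted p of the members, 0.153, with a log2 fold change of 0.60 under angiotensin II in long knockdown (edgeR adjusted p = 1).

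In overexpression of total CASC15 the calls depended on the fit. Of the 23 members tested in run 2, 0 passed edgeR's test, beside 1.65% of all genes, and 0 passed DESeq2's, beside 5.26%. In edgeR 3 had an unadjusted p under 0.05. With the batch as a replicate block 4 members passed, beside 17.7% of all genes: Cdkn1c, Rian and Slc22a18 lower and Impact higher. Without the filter on low counts and without a block 4 of the 37 members then tested passed, beside 4.56% of all genes, all lower, among them Cdkn1c, Rian and Zfp57. Cdkn1c had 1.89, 0.715 and 1.08 CPM with the control plasmid and 0.599, 0.299 and 0.208 CPM with overexpression. No overexpression library reached a control library (log2 fold change -1.72, SE 0.496, edgeR adjusted p = 0.14, and 0.0166 with the block), from 4 to 12 counts in the overexpression libraries.

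Rian had 2.7, 4.35 and 0.0567 CPM with the control plasmid and 0.899, 0.897 and 0.104 CPM with overexpression. The groups overlapped, and the P19 library of each group held at most 2 counts (log2 fold change -1.90, SE 1.05, edgeR adjusted p = 0.437, and 0.0121 with the block). The value was -1.16 without replicate 2 of the plasmid controls and -2.47 without replicate 3, the P19 library. Impact had 150, 159 and 138 CPM against 210, 207 and 151 CPM, higher in 3 of 3 batches (log2 fold change 0.34, SE 0.133, edgeR adjusted p = 0.26, and 0.0158 with the block). Slc22a18 had 18.6, 19.4 and 15.6 CPM against 14.8, 16.6 and 11.1 CPM and was lower in 3 of 3 (log2 fold change -0.34, SE 0.169, edgeR adjusted p = 0.39, and 0.0362 with the block).

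Zfp57 had 80.1, 104 and 72.3 CPM with the control plasmid and 59.3, 40.2 and 69.7 CPM with overexpression. All overexpression libraries were lower, the nearest by 72.3 against 69.7 CPM, and the difference did not pass (log2 fold change -0.60, SE 0.272, edgeR adjusted p = 0.349, and 0.297 with the block), except without the filter on low counts (edgeR adjusted p = 0.000967). Zfp445, at 104, 102 and 97.8 CPM against 101, 101 and 88.5 CPM, and Trim28, at 250, 234 and 215 CPM against 231, 199 and 215 CPM, overlapped and did not pass. Gnas had 830, 840 and 931 CPM with the control plasmid and 884, 847 and 885 CPM with overexpression, also overlapping. Airn had the only other unadjusted p under 0.05, with 3.92, 4.13 and 3.06 CPM against 2.2, 2.57 and 2.65 CPM, lower in 3 of 3 batches (log2 fold change -0.58, SE 0.222, edgeR adjusted p = 0.256). Dlk1 had 1.58, 1.54 and 0.68 CPM against 2.75, 1.38 and 0.468 CPM and overlapped (edgeR adjusted p = 0.878).

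Meg3 in run 2 stood out by its batch. It had 7.61, 11.4 and 0.17 CPM in plasmid controls and 3.24, 0.718 and 0.052 CPM with overexpression, so that P19 held 3 counts in the former and 1 in the latter, and it did not pass (log2 fold change -2.24, SE 1.23, edgeR adjusted p = 0.437). With the P19 libraries left out, only Impact of the 22 members then tested passed, beside 5.57% of all genes (log2 fold change 0.43, edgeR adjusted p = 0.0406). None of the 35 further imprinted genes and 30 methylation and chromatin genes tested passed edgeR's test in overexpression, beside 1.65% of all genes, and 8 and 10 passed with the block, beside 17.7%. The proliferation genes summed to 181 to 706 CPM with overexpression and 110 to 487 CPM with the control plasmid, none passed, and all 10 passed as higher with the block. The epithelial markers summed to 66.5 to 150 CPM against 44.7 to 64.5 CPM, without overlap, and 1 of 3 tested passed as higher with the block only. The fibroblast and adventitial markers summed to 1440 to 1950 CPM against 996 to 1650 CPM, and 3 of 7 passed with the block only, 1 higher and 2 lower. Their part in the values of the imprinted genes was not tested.

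In the libraries labelled total knockdown the calls also depended on the fit. Of 23 tested, 0 passed edgeR's test, beside 2.07% of all genes, and 0 passed DESeq2's, beside 4.68%. In edgeR 2 had an unadjusted p under 0.05. Without the filter on low counts 1 of the 37 members then tested passed, lower, beside 4.44% of all genes. With the block 1 passed, Sgce, beside 14.4% of all genes: Sgce had 48 and 48 CPM in antisense controls and 39.5 and 31.1 CPM in the libraries so labelled (log2 fold change -0.45, SE 0.237, edgeR adjusted p = 0.494, and 0.0197 with the block). Zfp57 had 70.5 and 131 CPM in the controls and 64.9 and 85.1 CPM in the labelled libraries, with overlap; its log2 fold change of -0.42 (SE 0.331, edgeR adjusted p = 0.687) became 0.08 without replicate 2 of the controls. Zfp445 was at 94.7 and 96.9 CPM against 81.6 and 79.9 CPM, apart but not past the test (log2 fold change -0.25, edgeR adjusted p = 0.365). Trim28 was at 271 and 254 CPM against 272 and 247 CPM, and overlapped. Kcnq1ot1, with the smallest unadjusted p of the members, had 0.579 and 0.84 CPM in the controls and 1.05 and 2.64 CPM in the labelled libraries, apart but not past the test (log2 fold change 1.38, SE 0.516, edgeR adjusted p = 0.27).

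Of the genes named under PDGF-BB, Rian had 2.72 and 6.62 CPM in the antisense controls of run 2 and 1.81 and 2.15 CPM in the libraries labelled total knockdown, Cdkn1c 2.81 and 2.57 against 1.86 and 1.39 CPM, and Dlk1 0.802 and 0.938 against 0.451 and 0.269 CPM. All 3 were lower in both labelled libraries than in both controls, and none passed (edgeR adjusted p = 0.753, 0.658 and 0.592). Impact had 132 and 127 CPM against 124 and 134 CPM, with overlap, and Gnas 864 and 769 against 938 and 878 CPM, without it (edgeR adjusted p = 0.713). The 8 macrophage and leukocyte markers summed to 17.2 and 21.7 CPM in the labelled libraries and to 0.535 and 0.79 CPM in their controls, and Cd68 (log2 fold change 5.19, edgeR adjusted p = 0.00576) and Csf1r (4.30, edgeR adjusted p = 0.0262) rose. The proliferation genes summed to 138 and 221 CPM against 72.5 and 83.9 CPM, and 9 of 10 passed as higher with the block only. The 8 endothelial markers summed to 6.02 and 10.1 CPM against 2.81 and 3.9 CPM, and both that were tested passed as higher with the block only. The epithelial markers summed to 73.4 and 96.3 CPM against 44.9 and 45.9 CPM, and 1 of 3 passed as higher with the block only. The fibroblast and adventitial markers summed to 782 to 803 CPM against 851 to 973 CPM, without overlap, and 2 of 7 passed as lower with the block only. Of the smooth muscle markers, at 687 and 748 CPM against 684 CPM in both controls, 1 of 9 passed, higher. Of the 35 further imprinted genes and 30 methylation and chromatin genes none passed edgeR's test, beside 2.07% of all genes, and 11 and 4 passed with the block, beside 14.4%. Their part in the values of the imprinted genes was not tested.

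Some members share reads or a locus with another gene. The estimated counts of Mest, Copg2, Snrpn and Ube3a were not whole in 19, 19, 26 and 20 of 30 libraries, as happens where reads are split between genes. Igf2r and Airn, Gnas and Nespas, and Mest and Copg2 overlap or lie antisense to each other, Snrpn shares its transcript with Snurf, and Mcts2 lies within H13. The counts of Igf2r, Airn, Gnas, Nespas and Mcts2 were whole in all 30 libraries. The sources used here do not state that counting used strand, so from which strand the reads of such pairs came is not known.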

How the data were processed

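Cells were sequenced as paired reads of total RNA in 30 libraries. The authors deposited expected counts for each gene and library; per the submitters' processing notes the tools were STAR 2.7.11b and RSEM 1.3.1, and the builds named were GRCm39 and mm10, with no role given. The annotation and the strandedness of counting are not given in the sources used here. GENCODE M21 gave symbols to 51486 of 78334 identifiers, which held 98.7% of counts, and exon lengths.

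These were rounded to integers. The filter filterByExpr (minimum count 10, minimum total 15) left 15350 genes in run 2 and 15103 in run 3. Each run was fitted separately with edgeR 4.0.16 (R 4.3.3, limma 3.58.1): TMM scaling, robust quasi-likelihood fit with a coefficient per group, two-sided tests, Benjamini-Hochberg adjustment over all genes of a comparison, threshold 0.05. The common biological coefficient of variation of run 2 was 0.232 and that of run 3 was 0.148. CPM per library uses the TMM-scaled library size. Within-batch log2 differences added 0.1 CPM.

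The main fits held no batch term, so their tests were not paired. The labels tie replicate numbers to batches P16 to P19, and each comparison was therefore also fitted with the batch as a block, which pairs same-numbered libraries. After removing group means the mean correlation of same-numbered libraries was 0.184 to 0.499 over the comparisons of 2 groups. The other alternatives were DESeq2 1.42.0, RLE scaling, other filters, only the groups compared, a minimum absolute log2 fold change of 1 and leaving out each library. Leaving out P19 was chosen after seeing the data. Libraries of a group differed by more than counting error (chi-square per degree of freedom at least 4.37 in all 38 pairs), so within a group none was the same library read again. Whether they came from separate cultures is not shown by this, and libraries of different groups were not compared in this way.

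The members and the gene lists were chosen with earlier results of these data known. Values in every library are given for the regulators, members called with a log2 fold change beyond 1 in size outside long knockdown, and the 4 members with the highest level per kilobase in run 3. In long knockdown, the 4 largest increases and decreases among tested members with a mean of at least 1 CPM are named, and in other lists up to 3 called genes per comparison; further members named were chosen after their values were seen. Promoter windows come from RefSeq (GRCm38.p6) and were searched for the motif and its reverse complement.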

Additional observations from a re-analysis of the deposited data

Results flagged for a closer look

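In groups of 4 libraries, a library was looked at again where its gap to the nearest of the others exceeded Dixon's 95% critical share of the group's range. Of 125 group values of the 25 members tested in run 3, 7 passed, and chance flags about 1 in 20. The P19 libraries held 5 of the 7. Zfp57 was low in P19 in untreated antisense controls (107 CPM) and in antisense controls under angiotensin II (104 CPM). P19 was high for Mest (1.27 CPM) and Copg2 (73.9 CPM) under PDGF-BB, 2 genes that share a locus, and for Slc22a18 in untreated long knockdown (11.9 CPM). Cdkn1c was high in the P17 library of untreated antisense controls (3.84 CPM), and Snrpn was low in the P16 library of antisense controls under angiotensin II (9.37 CPM).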

How the results depend on the processing

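The 12 members called under PDGF-BB were 9 to 12 when single libraries were left out, 17 with P19 left out, beside 48.9% of all genes, and 3 where the log2 fold change also had to be 1 or more in size, beside 10.2%; the 15 further imprinted genes and 17 methylation and chromatin genes called became 6 and 5 at that fold. The counts of 10 in long knockdown, a description, were 4 in each setting at that fold, beside 5.12% and 5.36% of all genes, and 9 to 11 and 8 to 10 without single libraries. In overexpression the count of 0 became 4 with the replicate block, 4 without a filter on low counts, where Zfp57 passed (log2 fold change -0.61, edgeR adjusted p = 0.000967), and 1 with P19 left out; in the libraries labelled total knockdown it became 1 with the replicate block and 1 without a filter. In overexpression it stayed at 0 in every fit that left out 1 library, where 0.561% to 5.69% of all genes passed, beside 1.65% with every library. In the libraries labelled total knockdown such a fit leaves 1 library in a group, so no count is given for it. The cause was not tested. In the same labelled libraries Trim28 (log2 fold change -0.02) ran from -0.1 without replicate 1 of the labelled libraries to 0.02 without replicate 1 of the controls, 0.05 without replicate 2 of the labelled libraries and 0 with a filter at a mean of 1 CPM, and Zfp57 (-0.42) from -0.81 without replicate 1 to 0.08 without replicate 2 of the controls. Counts of members for angiotensin II against no treatment and for the interaction were 0 in every fit. Of 368 refits of 27 single gene results in the tested comparisons, 320 kept direction and side of the threshold, 22 lost and 22 gained a call and 4 changed sign. Of 240 refits of 16 long knockdown values, which carry no test, 1 changed sign: Mcts2 under angiotensin II was at 0.02 without replicate 4 of its controls. In the tested comparisons the block changed no call of a member beyond those given in the report. With 2 libraries per group, total knockdown allows the least precision, and the 15 members with at most 12 counts in every library of run 3 were not tested.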
